A study of Mus musculus with 18 samples.

Results

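Long noncoding RNAs, 10 in all, were chosen by name. They were the snoRNA host RNAs Gas5, Snhg1, Snhg5, Snhg6, Snhg8 and Snhg12, the nuclear RNAs Malat1 and Neat1, and the imprinted RNAs Meg3 and H19. The table of mouse liver expression lists 37303 genes, and 6 of the 10 names had a row in it: Gas5, Snhg12, Malat1, Neat1, Meg3 and H19. Snhg1, Snhg5, Snhg6 and Snhg8 were matched by neither symbol, Ensembl identifier nor older synonym and are not analysed here, except for snoRNAs annotated inside them. RNA-Seq of poly-A RNA was done on 18 livers in 6 groups of 3 mice on a C57BL/6J background: WT, Gcn2-/- and Atf4-/- mice, each given phosphate buffered saline (PBS) or asparaginase (ASNase). Both deletions were whole-body. ASNase, an enzyme drug that breaks down circulating asparagine, was injected once daily for 8 days at 3 IU per gram body weight, and livers were taken 7.5 h after the last injection. The ages were 8 to 16 weeks by one label and up to 12 weeks by another. The labels give 2 males of 3 mice for WT ASNase and each Atf4-/- group, and 1 male of 3 for WT PBS and each Gcn2-/- group.

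GCN2, the product of Eif2ak4, is a kinase that senses amino acid shortage and modifies the initiation factor eIF2, which raises the synthesis of ATF4, an activator of transcription. A snoRNA host gene carries small nucleolar RNAs in its introns. Splicing releases the introns, the snoRNAs are trimmed from them and guide chemical modification of ribosomal RNA, and the spliced host RNA is often short-lived because its translation triggers nonsense-mediated decay. Many host genes begin with a run of pyrimidines, as ribosomal protein genes do. Malat1 and Neat1 stay in the nucleus, at splicing speckles and as the scaffold of paraspeckles, respectively. Meg3 and H19 are expressed from the maternal chromosome, and both are abundant in fetal tissues and fall after birth in liver.

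Each value is an FPKM (sequenced fragments scaled by transcript length and by library size) that the authors' Cuffdiff run estimated for a group from its 3 libraries together, with a lower and an upper bound. The table holds no value of a single mouse, so no SD or p-value across mice was computed and no difference was checked mouse by mouse. Interval bounds are written in parentheses. Differences are log2((FPKM + 0.1) / (FPKM + 0.1)), which understates the change of RNAs at low levels. Genes with status OK and a value above 0 in both groups, and over 3 FPKM in either, were eligible. An eligible gene was called where its intervals lay apart and its log2 difference exceeded 1.5 in either direction. Median-ratio scale factors of the 6 groups were 0.977 to 1.03, and the median log2 difference of all eligible genes lay between -0.01 and 0.08 in the 7 comparisons.

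The targeted genes were read first. Atf4 stood at 32.3 FPKM (19.1 to 45.5) and 29.3 FPKM (17.3 to 41.2) in the Atf4-/- PBS and ASNase groups and between 50.4 and 68.1 FPKM in the other 4 groups. The intervals of both Atf4-/- groups overlap those of the other groups, such as 29.7 to 71.1 in WT PBS. A gene-level FPKM does not show which part of Atf4 carried the reads. These values therefore do not check the deletion, and the Atf4-/- label is taken as given. Eif2ak4 lay between 2.19 and 3.14 FPKM in all 6 groups and did not set the groups labelled Gcn2-/- apart. The study describes that allele as lacking a single exon, and a gene-level FPKM does not show which exons carried reads, so Eif2ak4 checks nothing here and the label is taken as given. Of 9 hepatocyte markers 7 or 8 had a usable value per group and all of these were over 1 FPKM. Their sum lay between 12294 FPKM, in Atf4-/- ASNase, and 36296 FPKM, in Gcn2-/- PBS.

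Gas5 (ENSMUSG00000053332, mm10 chr1:161034422-161038539, + strand) and Snhg12 (ENSMUSG00000086290, chr4:132308623-132311024, + strand) are the measured snoRNA hosts. In the GENCODE M21 annotation the Gas5 model with most exons has 12 exons and 502 exonic bases, and 10 snoRNA entries lie in its introns, Snord80 being entered under a pair of identifiers. The Snhg12 model has 5 exons and 606 bases, with 5 snoRNA entries in its introns, a pair of them for Snora16a. The sequences of a snoRNA of each class are shown because they are what the introns of these hosts carry. SNORD44 lies in an intron of Gas5 (chr1:161036682-161036741, + strand) and is a box C/D snoRNA, a class that guides 2′-O-methylation. Snora61 lies in an intron of Snhg12 (chr4:132310240-132310369, + strand) and is a box H/ACA snoRNA, a class that guides pseudouridylation. Capitals mark the letters of box C and box D in the former and the ACA box in the latter.
SNORD44: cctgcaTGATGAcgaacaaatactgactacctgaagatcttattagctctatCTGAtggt
Snora61: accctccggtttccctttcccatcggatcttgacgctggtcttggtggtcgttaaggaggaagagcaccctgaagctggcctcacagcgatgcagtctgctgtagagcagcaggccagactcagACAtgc

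**Figure D1:**
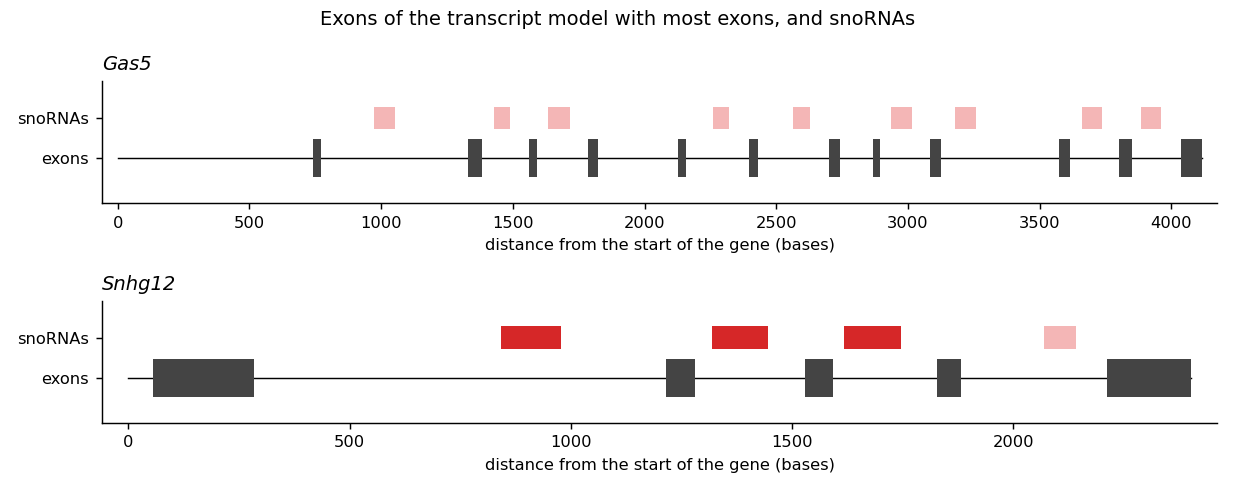
Exons (dark) of the Gas5 and Snhg12 transcript model with most exons and the snoRNAs annotated inside each gene, by distance in bases from the annotated start of the gene. Dark red snoRNAs had an FPKM above 0 in at least 1 group and pale ones in none; all of the snoRNAs lie in introns of the model drawn.

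The promoter windows of Gas5 and Snhg12 are shown because these RNAs were called together, as described further on. They are RefSeq windows of 300 bases on GRCm38.p6, with 250 bases before the annotated start and the remaining 50 from it on. RefSeq has a pair of windows for Gas5, and the one shown (chr1:161034916-161035215, + strand) starts 3 bases from the first exon of the 12-exon model. The Snhg12 window is chr4:132308428-132308727, + strand, and its start coincides with that of the 5-exon model. Capitals mark the run of C and T at the start and, in Gas5, the letters TGACGTCA.
Gas5: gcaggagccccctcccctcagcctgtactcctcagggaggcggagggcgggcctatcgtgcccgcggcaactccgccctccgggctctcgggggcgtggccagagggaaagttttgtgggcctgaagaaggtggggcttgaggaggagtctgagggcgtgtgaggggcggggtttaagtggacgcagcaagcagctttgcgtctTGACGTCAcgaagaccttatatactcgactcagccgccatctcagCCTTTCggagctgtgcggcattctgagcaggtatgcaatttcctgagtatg
Snhg12: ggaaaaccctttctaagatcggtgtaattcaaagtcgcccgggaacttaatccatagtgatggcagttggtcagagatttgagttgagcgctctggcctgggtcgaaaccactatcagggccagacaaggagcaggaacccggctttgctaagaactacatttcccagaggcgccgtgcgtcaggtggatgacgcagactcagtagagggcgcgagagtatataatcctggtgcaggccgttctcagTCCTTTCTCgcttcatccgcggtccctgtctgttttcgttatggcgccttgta

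The run of C and T that touches the 4 bases either side of the start is 6 bases long in the Gas5 window shown and 9 in Snhg12. A run at least as long is present in 19.1% and 6.27% of the 32851 windows in the table, where the median run is 3 bases. Snhg1 also has a run of 9 and Snhg8 a run of 7, and Snhg5 one of 3. The other Gas5 window has a run of 3, a length that 62.6% of windows reach, and lacks TGACGTCA. Among the members that are not snoRNA hosts, Malat1 has a run of 2 and the windows of Meg3 have runs of 5 and 0. These runs were looked for after the values had been seen. The cAMP response element TGACGTCA was searched on both strands and is in 1.79% of all windows. It occurs in 2 of the 9 windows of the members, in Gas5 from base -46 and in Meg3 from base -57 relative to the start. The C/EBP-ATF composite letters TGATGNAA are in 3.97% of all windows and in none of the members' windows, the E-box CACGTG in 7.15% and in none, and CCAAT in 37.4% and in 3, those of Meg3, Snhg5 and Snhg8. These matches describe letters only.

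Gas5, a host RNA first known from growth-arrested cells, stayed within a narrow range in 5 of the 6 groups. In WT its FPKM was 149.8 (74.4 to 225) under PBS and 160.5 (78.4 to 243) under ASNase. The groups labelled Gcn2-/- had 178 (87.4 to 268) and 156 (63.5 to 248), respectively. The Atf4-/- livers had 149 (72.7 to 226) under PBS and 921 (391 to 1449.9) under ASNase. The lower bound in this last group is above the upper bounds of the other 5, and no pair among those 5 separates. The ASNase response of Gas5 was 0.10 log2 in WT, -0.19 in Gcn2-/- and 2.62 in Atf4-/-. In Atf4-/- this is a ratio of 6.16, with 1.73 and 19.9 as the ratios of the nearest and the farthest interval edges.

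Snhg12, a host of mostly box H/ACA snoRNAs, was less abundant per length than Gas5 and had a similar ratio in Atf4-/-. Its WT level was 12.7 FPKM (3.78 to 21.6) with PBS and 18.0 (7.25 to 28.7) with ASNase. In Gcn2-/- it was 15.5 (6.71 to 24.3) and 14.7 (6.24 to 23.1) in that order. In Atf4-/- it was 17.5 (6.85 to 28.2) with PBS and 114 (58.2 to 169) with ASNase, and the last interval again lies above the other 5. The ASNase response was 0.50 log2 in WT, -0.08 in Gcn2-/- and 2.69 in Atf4-/-, the last a ratio of 6.49 with 2.06 and 24.7 at the interval edges. The difference between WT PBS and WT ASNase in Snhg12 is smaller than either interval.

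Malat1 and Neat1 were also highest in Atf4-/- ASNase, but their intervals do not separate any groups. Malat1 (chr19:5795690-5802672, - strand) was at 54.2 FPKM with PBS and 65.4 with ASNase in WT, at 81.3 and 82.5 in Gcn2-/- and at 68.1 and 254 in Atf4-/-. Every lower bound of Malat1 is 0, and the upper bounds run from 111 to 767. Neat1 (chr19:5824708-5845478, - strand) was at 91.5, 113, 105, 190.3, 111 and 347 FPKM in the same order of groups. The lower bounds of Neat1 are 0 as well, and the distance from the value to the upper bound is 552% to 773% of the value. The log2 response in Atf4-/- was 1.90 for Malat1 and 1.65 for Neat1, both over 1.5 and neither called. With Gas5 and Snhg12 they make 4 of the 5 eligible members with a log2 difference above 1.5 whatever the intervals, where 5.23% of all eligible genes had one.

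Overlapping genes touch the Malat1 and Gas5 loci. The library kit does not mark strand, so reads of a gene and of an antisense gene cannot be told apart. Gm20417 is given the same locus as Malat1 in the table and stood at 0.409 to 0.490 of the Malat1 FPKM in every group, so the level given to Malat1 depends on how Cuffdiff divided shared reads. The antisense gene Zbtb37 overlaps Gas5 and was at 0.896 to 2.84 FPKM, where Gas5 was at 149 to 921 FPKM.

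Meg3 (chr12:109541001-109571726, + strand) had its highest level in Atf4-/- PBS. WT livers had 3.62 FPKM (0.532 to 6.70) with PBS and 3.21 (0.260 to 6.15) with ASNase. Gcn2-/- livers had 1.03 (0 to 2.20) and 0.378 (0 to 1.05). Atf4-/- livers had 12.5 (3.34 to 21.6) with PBS and 0.935 (0 to 2.32) with ASNase. The Atf4-/- PBS interval is above those of Atf4-/- ASNase and of both Gcn2-/- groups and overlaps those of both WT groups. With ASNase Meg3 fell by 3.60 on the log2 scale in Atf4-/-. Its response was -0.17 log2 in WT, and in Gcn2-/- it was too low in both groups to be eligible.

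H19 (chr7:142575529-142578143, - strand) separated WT from both deletions. Its FPKM was 27.2 (13.5 to 40.9) in WT PBS and 46.6 (14.8 to 78.4) in WT ASNase. With PBS it was 2.26 (0.611 to 3.91) in Gcn2-/- and 1.63 (0.318 to 2.93) in Atf4-/-. With ASNase it was 0.191 (0 to 0.580) in Gcn2-/- and 2.24 (0 to 5.52) in Atf4-/-. Both WT values are above all 4 others with no overlap of intervals, and the WT values overlap each other. In Gcn2-/- the response was -3.02 log2 with separate intervals, but both values were under the FPKM limit of 3.

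**Figure D2:**
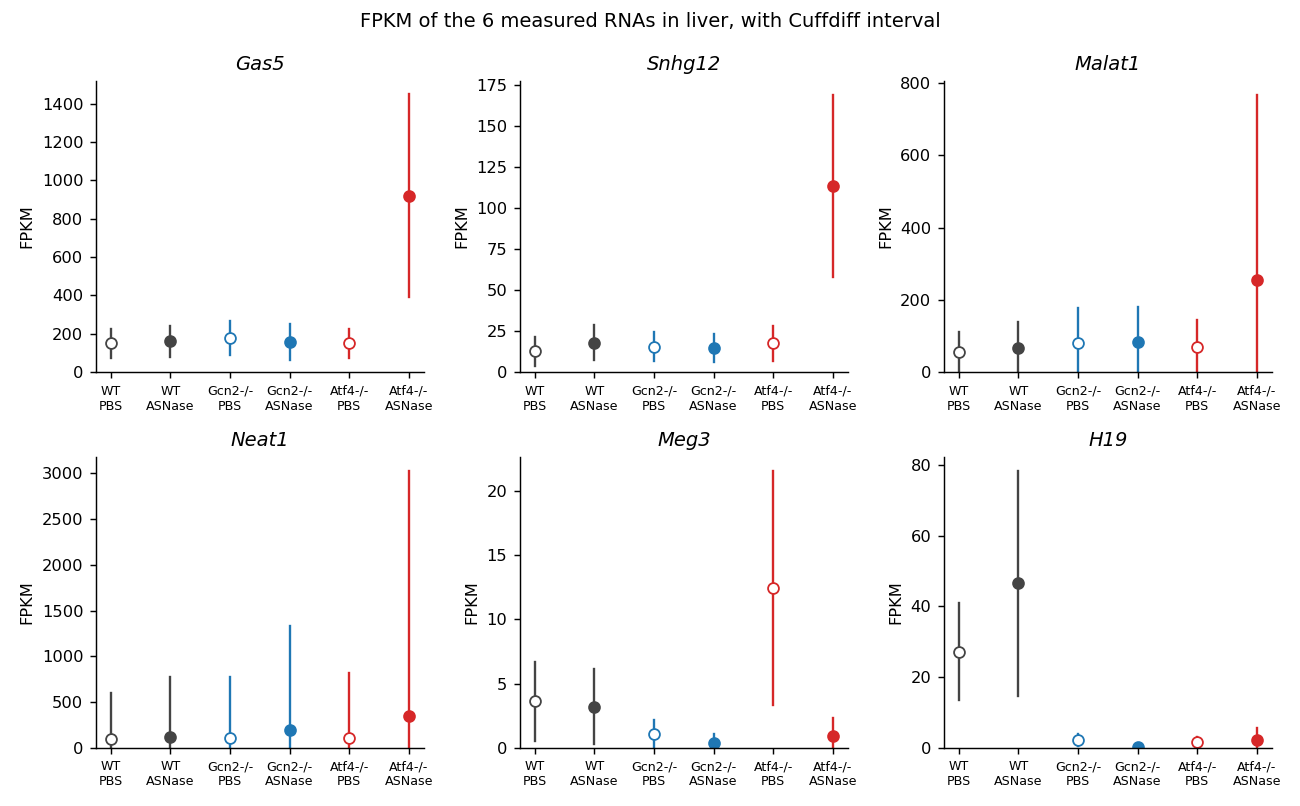
FPKM (linear axis from 0, a scale of its own for each RNA) of the 6 measured RNAs in the 6 groups; points are the group values, open for PBS and filled for ASNase, and lines are the Cuffdiff intervals. Gas5 and Snhg12 stand apart in Atf4-/- ASNase and H19 in both WT groups, while every Malat1 and Neat1 interval reaches 0.

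Set against the whole table, the members' calls fell as follows. In the ASNase response of WT 0 of 6 eligible members were called, where 0.881% of 9084 eligible genes were. In the response of the groups labelled Gcn2-/- 0 of 4 eligible members were called, against 3.69% of 9218 genes. In Atf4-/- 3 of 5 eligible members were called, against 7.37% of 9485 genes. The 2 higher were Gas5 and Snhg12, where 2.74% of genes were higher, and the 1 lower was Meg3, where 4.63% were lower. Meg3 met the FPKM limit through Atf4-/- PBS alone, at 12.5 FPKM beside 0.935 with ASNase. No tool gave p-values for these counts, since the table has no replicates.

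The other comparisons turned on H19 and on the hosts. Under PBS H19 was the 1 called member of 6 in the Gcn2-/- groups against WT (-3.53 log2, 1.04% of eligible genes called and 0.65% lower) and in Atf4-/- against WT (-3.98 log2, 1.12% called and 0.763% lower). Under ASNase it was the 1 of 6 in Gcn2-/- against WT (-7.32 log2, 4.41% called and 2.59% lower). In Atf4-/- against WT under ASNase 3 of 6 were called, against 8.25% of 9577 genes. Gas5 at 2.52 and Snhg12 at 2.66 log2 were higher, as were 2.59% of genes, and H19 at -4.32 log2 was lower, as were 5.66%. In all of these comparisons H19 met the FPKM limit through the WT group alone and so could be called only lower. Its values in the deletion groups were 0.191 to 2.26 FPKM. The WT and Atf4-/- comparisons share groups, so these calls are not independent of those of the ASNase responses.

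The responses of the strains were also compared directly. A difference of log2 responses was taken as large when it was over 1.5 and over the combined log2 error of the 4 intervals. Here a gene needed over 3 FPKM in at least 1 of the 4 groups. Atf4-/- minus WT gave 2.52 with an error of 1.22 for Gas5, 2.19 with 1.35 for Snhg12 and -3.43 with 1.93 for Meg3, all large, where 9.71% of 9698 genes were. Atf4-/- minus Gcn2-/- gave 2.81 with an error of 1.26 for Gas5, 2.77 with 1.28 for Snhg12 and -2.35 with 2.19 for Meg3, where 5.93% of genes were large. For Gcn2-/- minus WT H19 alone of the 6 was large, at -3.79 with an error of 1.73, where 6.89% of genes were. H19 met the FPKM limit through the WT groups alone, its Gcn2-/- values being 2.26 and 0.191 FPKM. In Atf4-/- minus Gcn2-/- Meg3 met it through Atf4-/- PBS alone, at 12.5 FPKM, with 1.03 and 0.378 FPKM in Gcn2-/-. In neither case was the Gcn2-/- response itself eligible. Malat1 and Neat1 differed between strains by 0.25 to 1.88 log2 in absolute size, less than their errors of 2.19 to 5.85.

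**Figure D3:**
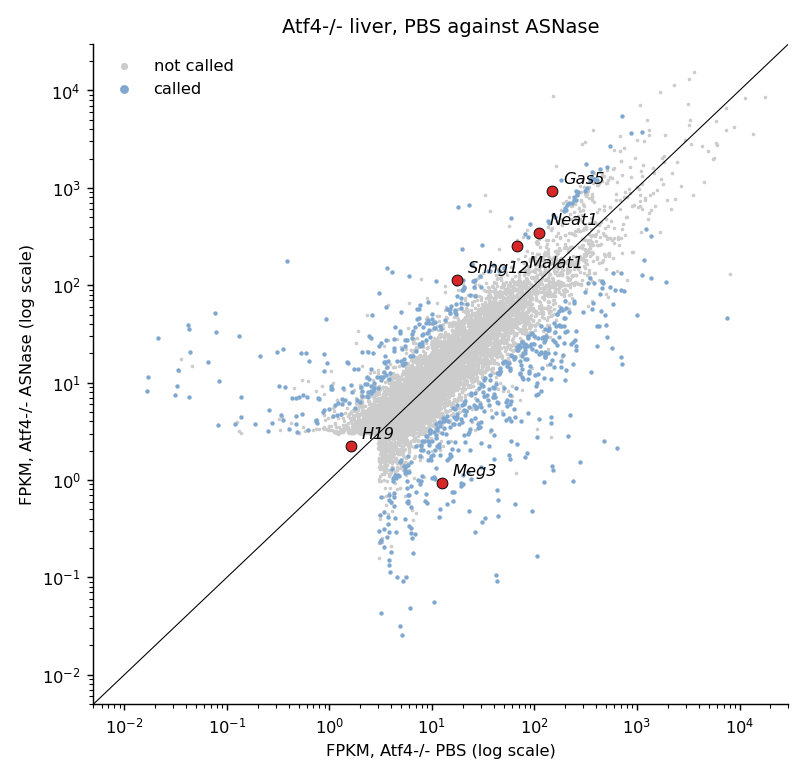
FPKM of every eligible gene in Atf4-/- PBS (x, log scale) and Atf4-/- ASNase (y, log scale), with called genes in blue, the line of equal values in black and the 6 measured RNAs in red; H19 is drawn although both of its values were under the limit. Gas5, Snhg12, Malat1 and Neat1 lie above the line and Meg3 below it.

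Few snoRNAs had a value in the table. None of the 454 annotated snoRNAs of up to 100 bases had a value above 0 in any group, against 172 of 1469 snoRNAs of all lengths and 18 of the 39 over 150 bases. The parts of poly-A selection, gene length and the FPKM calculation in these zeros were not tested. All 9 snoRNAs of Gas5 that are in the table are this short and are listed at 0. In Snhg12 the box C/D snoRNA Snord99, of 74 bases, is listed at 0 and the longer Snora16a, Snora44 and Snora61 have values. Snora61 in Atf4-/- was at 11.8 FPKM (7.82 to 15.9) with PBS and 48.2 (0 to 531) with ASNase with overlapping intervals. Snora16a was at 10.6 (8.52 to 12.7) and 36.0 (20.1 to 51.8) in the same groups, with separate intervals, and at 26.2 (0 to 157) in WT PBS. Whether such reads came from unspliced host RNA was not tested.

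Of the unmeasured hosts, 2 have a snoRNA with values. Snord22, in an intron of Snhg1, was at 104 FPKM (0 to 244) with PBS and 399 (385 to 412) with ASNase in WT. It was at 323 (0 to 671) and 134 (0 to 299) in Gcn2-/- and at 56.6 (0 to 165) and 402 (22.6 to 782) in Atf4-/-. Snora24, in an intron of Snhg8, was between 9.06 FPKM in WT PBS and 64.9 in Atf4-/- ASNase. The widths of these intervals differ widely between groups, and no order is read from these values.

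Other genes of the same pathways were taken from lists. The list of other noncoding snoRNA hosts had 8 of its 16 names in the table, and 7 were eligible in the ASNase response of Atf4-/-. One of them was called, Snhg15, listed as Gm11974, which went from 3.57 to 27.4 FPKM (2.91 log2), and the median of the list was 1.49 log2 beside 0.08 for all eligible genes. Its medians in WT and Gcn2-/- were 0.37 and 0.39 log2 with none called. In Atf4-/- the 1 called gene is 14.3% of those eligible, beside 7.37% of all eligible genes. When all noncoding hosts were instead read from the annotation, 28 were in the table and 14 were eligible in Atf4-/-. The 5 called were Gas5, Snhg12, Snhg15, 2410006H16Rik (3.07 log2) and 1110038B12Rik (1.76 log2), all higher, and the median of the 14 was 1.81 log2. These 5 are 35.7% of those eligible, beside 7.37% of all eligible genes. They include the members Gas5 and Snhg12 and the Snhg15 counted above, so this share is not separate from those counts.

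Long noncoding RNAs without a snoRNA inside were counted in the same way. Of 193 eligible in the ASNase response of Atf4-/- 3 were called higher and 13 lower, which is 8.29% beside 7.37% of all eligible genes, and their median was -0.21 log2. The difference from the hosts was not tested. In the list of other long noncoding RNAs, 3 were eligible and none was called. The most abundant of these were Xist, the RNA that coats the silenced X chromosome, at 33.9 to 89.8 FPKM, and Mir22hg, the host of a microRNA, listed as 2210403K04Rik, at 22.3 to 36.3 FPKM. The groups held 1 or 2 females of 3 mice, and none of the 5 sex-linked genes listed was called in an ASNase response. Every group held both sexes, and the number of males was the same with PBS and ASNase in each deletion. The absence of calls therefore says nothing on an effect of sex. This list was added after values had been seen.

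Some protein-coding snoRNA hosts, many of them ribosomal protein genes, were also called in Atf4-/-. Of 26 in the list 8 were called higher in the Atf4-/- response and none in WT or Gcn2-/-, with medians of 1.61, 0.06 and 0.04 log2. The 8 are 30.8% of the list, beside 7.37% of all eligible genes in Atf4-/-. The largest of those called were Rpl12 (2.47 log2, 317 to 1760.2 FPKM), Rps12 (2.29), the elongation factor gene Eef1b2 (2.0) and Rpl5 (1.87). Ribosomal protein genes with a snoRNA inside had a median of 1.65 log2 in Atf4-/- and 14 of 30 called (46.7%). Those without one had a median of 1.48 log2 and 15 of 47 called (31.9%). Protein-coding hosts outside the ribosomal proteins had a median of 0.33 log2, with 4 of 147 called higher and 1 lower. That is 3.40% called, beside 7.37% of all eligible genes, of which 2.74% were called higher and 4.63% lower. The ribosomal protein and annotation lists were built after values had been seen.

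Genes of the proteins that bind snoRNAs were a further list. Of 8 eligible 2 were called higher in the Atf4-/- response, the box C/D core protein Nop58 (2.23 log2, 8.72 to 41.2 FPKM) and the box H/ACA protein Gar1 (2.24 log2, 9.25 to 44.2 FPKM), and the median was 1.12 log2. These 2 are 25% of the list, beside 7.37% of all eligible genes. The other 6 were not called. Of 10 nonsense-mediated decay factors none was called in any strain. The helicase Upf1 was at 10.8 and 14.8 FPKM and Smg5 at 9.26 and 13.04 FPKM in Atf4-/- PBS and ASNase. Of 6 paraspeckle protein genes none was called in Atf4-/-, where their log2 differences reached 2.15 (Pspc1, named for this value), and the abundant Hnrnpk was at 214 and 231 FPKM.

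**Figure D4:**
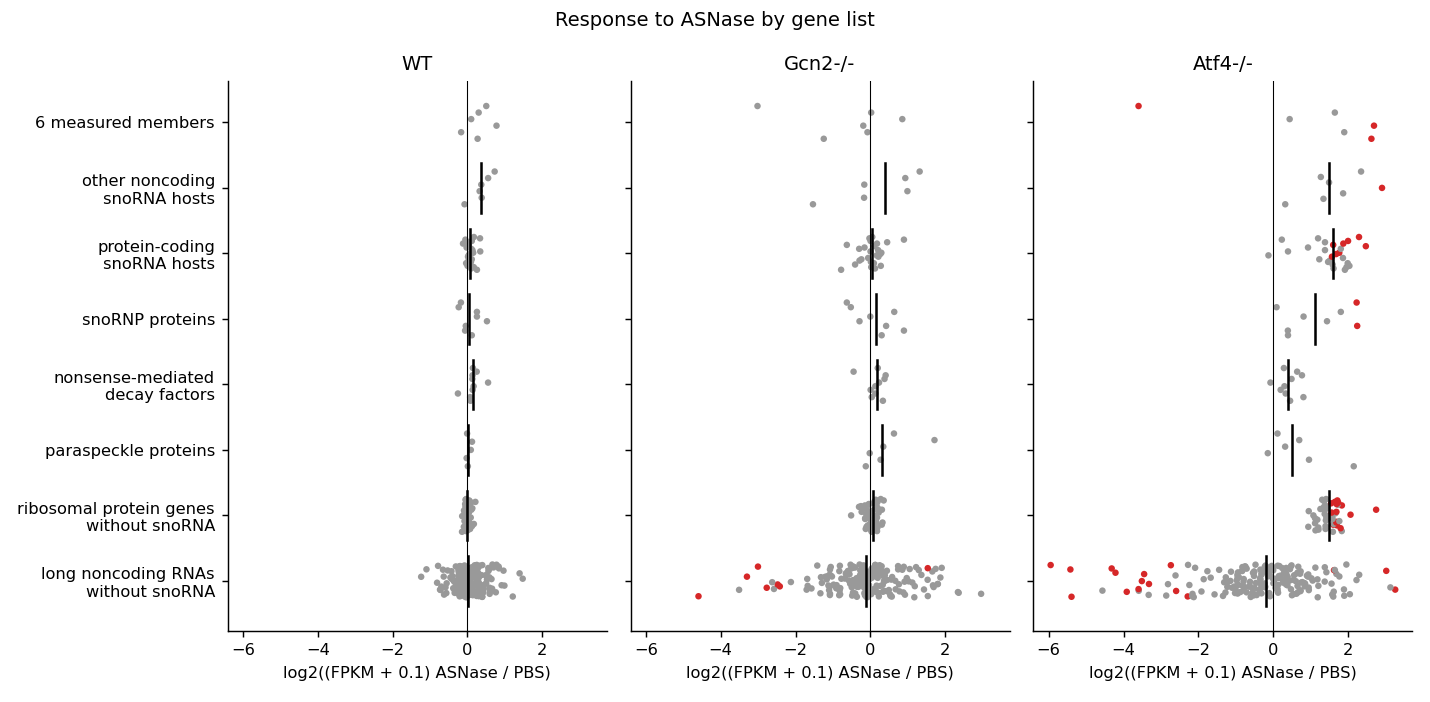
Log2((FPKM + 0.1) ASNase / PBS) in the 3 strains for the 6 measured members (all shown, eligible or not) and for the eligible genes of 7 lists; each point is a gene, red points were called and black bars are list medians. The medians of the host, ribosomal protein and snoRNP lists are above 1 in Atf4-/- alone, and long noncoding RNAs without a snoRNA are spread around 0 in each strain.

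Genes beside the nuclear RNAs and the growth arrest genes complete the lists. Of the genes beside Malat1 and Neat1 on chromosome 19, 3 were eligible in the Atf4-/- response and none was called. Slc25a45 was at 13.9 FPKM with PBS and 6.09 with ASNase. Of 6 growth arrest genes 3 were called higher in Atf4-/-, which is 50%, beside 7.37% of all eligible genes. The 3 were Cdkn1a, an inhibitor of cyclin-dependent kinases (5.46 log2), Gadd45a (4.03) and Btg2 (2.71). In Gcn2-/- Cdkn1a (5.17) and Btg2 (2.24) were called, where Gas5 was not, and in WT none was. The 2 called in Gcn2-/- are 33.3% of the list, beside 3.69% of all eligible genes.

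The profile across the 6 groups was compared with that of 9814 other genes, by Euclidean distance between centred log2 values. Nearest to Gas5 were Soat2, a cholesterol acyltransferase gene, at 0.39, the snoRNA host Zfas1, listed as 1500012F01Rik, at 0.41, and Rpl12 at 0.41. Nearest to Snhg12 were Gas5 at 0.52, the cathepsin gene Ctsl at 0.55 and Chac1, a glutathione-degrading enzyme, at 0.57. For Malat1 they were Gm20417 at 0.24, with which it shares reads, Rpl5 at 0.27 and Rps20 at 0.27. For Neat1 they were Slc12a4 at 0.16, the snoRNA host Snhg17, listed as 9430008C03Rik, at 0.16 and Il17ra at 0.22. The 6 points share their libraries across genes, and these distances are descriptions.

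Meg3 had no close neighbour among the genes compared. Its nearest were Susd4 at 1.08, the oxysterol hydroxylase Cyp7b1 at 1.33 and the organic anion transporter Slc22a7 at 1.74. Cyp7b1 went from 100.5 FPKM in Atf4-/- PBS to 28.4 in Atf4-/- ASNase and was at 5.06 in Gcn2-/- ASNase. The imprinted partners of Meg3 and H19 were low. Of 6 in the table only Igf2r was eligible, at 3.39 to 6.31 FPKM and not called in any ASNase response, and Cdkn1c was at 0.818 to 1.35 FPKM. Of the fetal liver genes Afp stayed between 0.356 and 1.26 FPKM. Tff3 was at 116 FPKM in Gcn2-/- PBS and 48.9 in Gcn2-/- ASNase, against 1.08 to 8.45 in the other groups, an order unlike that of H19.

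The nearest profiles of H19 were muscle genes. They were Rpl3l, a ribosomal protein gene of striated muscle, at 1.94, Pygm, the muscle glycogen phosphorylase, at 1.95, and Apobec2 at 2.0. The 15 skeletal muscle markers summed to 1052 FPKM in WT PBS and 1478 in WT ASNase, to 7.92 and 11.4 in the Gcn2-/- groups and to 83.7 and 188 in the Atf4-/- groups. All 15 were over 1 FPKM in both WT groups, 2 in each Gcn2-/- group and 11 and 12 in the Atf4-/- groups, and Myh4 and Pvalb were at 0 in Gcn2-/- PBS and Pvalb in Gcn2-/- ASNase. Among the called markers the largest differences against WT under PBS were those of Mb (-9.78), Tnnc2 (-9.55) and Ckm (-9.29 log2) in Gcn2-/- and of Pvalb (-4.16), Myl1 (-4.16) and Myh2 (-3.78 log2) in Atf4-/-. Of those eligible under PBS 11 of 13 were called lower in Gcn2-/- and 11 of 15 in Atf4-/- against WT, the same comparisons in which H19 was called. Of all eligible genes 0.65% and 0.763% were called lower there. The marker median was 0.0375 FPKM in Gcn2-/- PBS and 5.65 in Atf4-/- PBS. Most markers thus met the FPKM limit in the Gcn2-/- comparison through WT alone and could be called only lower. The share of all eligible genes is no like measure for that count. Fewer cells of a type and less RNA per cell cannot be told apart in these samples, and the source of the muscle RNA was not tested. The part of muscle RNA in the level of H19 was not tested. Between the Gcn2-/- and Atf4-/- PBS groups the muscle sum was 7.92 and 83.7 FPKM while H19 was at 2.26 and 1.63 FPKM with overlapping intervals.

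**Figure D5:**
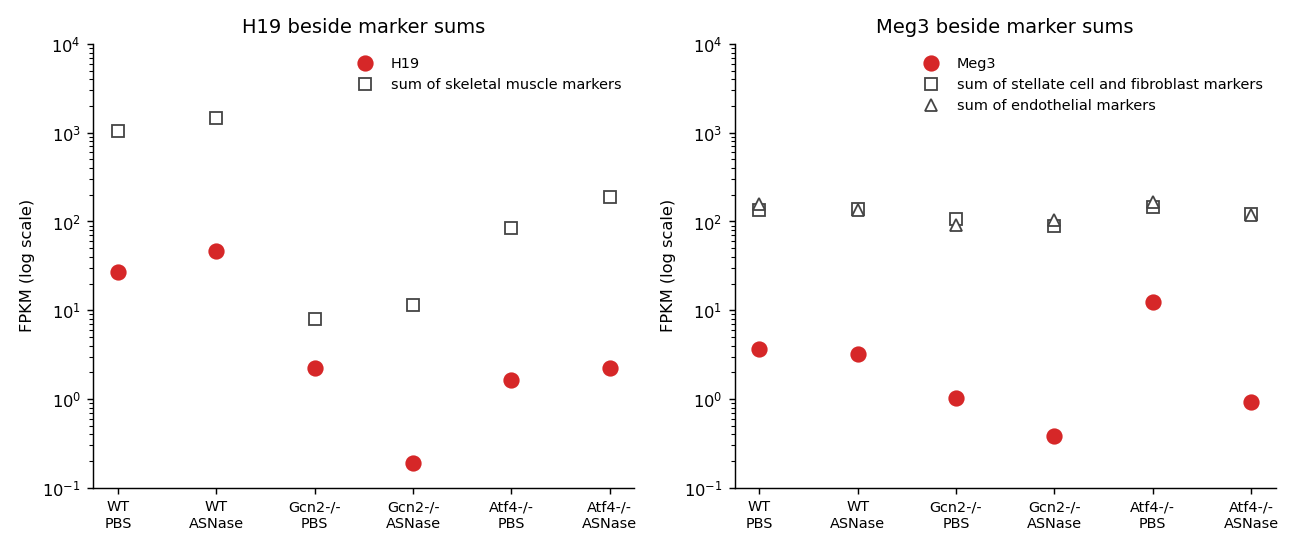
FPKM (log scale) of H19 beside the sum of 15 skeletal muscle markers (left) and of Meg3 beside the sums of 8 stellate cell and fibroblast markers and 8 endothelial markers (right) in the 6 groups. H19 and the muscle sum are both highest in the WT groups, and Meg3 spans a wider range than either sum beside it.

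Sums of stellate cell and fibroblast, endothelial and macrophage markers moved less than Meg3 in the Atf4-/- response. The 8 stellate cell and fibroblast markers in Atf4-/- summed to 144 FPKM with PBS and 123 with ASNase, the 8 endothelial markers to 164 and 118, and the 7 macrophage markers to 276 and 170.5. The eligible markers mostly fell in this response. Their medians were -1.31 log2 in the stellate cell and fibroblast list, -0.41 in the endothelial and -0.97 in the macrophage list. Those above 0 were 1 of 5, 2 of 8 and 1 of 7, in that order. Des, a stellate cell marker that muscle also expresses, was called lower in both deletions against WT under PBS. Among the listed markers the matrix gene Lum was called lower in the Atf4-/- response (-1.87 log2), as was Cd5l (-1.55), and Marco was called higher (2.85), as it was in the response of the groups labelled Gcn2-/-. Pancreatic acinar markers were also highest in Atf4-/- ASNase. Their sum was 292 FPKM in Atf4-/- ASNase and 49.5 in WT ASNase, with 5 of 6 over 1 FPKM in each, against 4.94 to 13.99 in the other 4 groups, where 1 of 6 was. The largest were Ctrb1 (8.51 log2 in Atf4-/-, 5.84 in WT) and Pnlip (8.12 and 5.29). Gas5 and Snhg12 in WT ASNase lay within their WT PBS intervals. Those intervals are wide and the acinar sum of WT ASNase was below that of Atf4-/- ASNase, so these values decide nothing on pancreatic RNA. The part of pancreatic RNA in the Atf4-/- ASNase values was not tested. Lung epithelium markers summed to 132 FPKM in WT PBS and to 0.723 to 2.05 in the other groups, with Scgb1a1 (-8.16 log2) and Sftpc (-5.77) called lower in the WT response. Cholangiocyte markers summed to 20.1 to 39.8 FPKM.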

How the data were processed

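RNA-Seq of poly-A RNA from 18 mouse livers gave 1 table with 37303 genes. Per the labels and the study's methods, single-end reads were aligned to mm10 (TopHat, Bowtie) and assembled (Cufflinks, Cuffmerge), and the authors had Cuffdiff estimate FPKM per group. The deposited FPKM values and their bounds are 1 set per group of 3 libraries, with a status word. Of these values 160, in 45 genes, had a status other than OK. Columns were matched to groups by their names. The table carries no counts, so depth is not known from it and precision was read from the bounds.

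Groups were compared on log2(FPKM + 0.1) by the call rule given in the results, with limits of 3 FPKM and 1.5 log2. It was applied to the whole table and run on simulated data. The simulation left out genes whose lower bound reached 0, such as Malat1 and Neat1, and changes near the log2 limit, so it does not speak for these. The design planned limma for single libraries, which the table does not hold. Named genes were all members, the called genes of each list (up to 4 with the largest difference) or else up to 2 of its most abundant, and the 3 nearest profiles of each member; a few genes this rule names are not reported here. Members and lists were chosen with earlier results of these data known. GENCODE M21 (GRCm38) gave gene and snoRNA positions, matched by identifier, and RefSeq gave promoter windows for 7 of the 10 members. Python 3.11.15, numpy 2.4.6, pandas 2.3.3 and matplotlib 3.10.9 were used.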

Additional observations from a re-analysis of the deposited data

How the results depend on the processing

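The 7 counts of called members were recomputed under 8 settings: pseudocounts of 1 and 0.01, no FPKM limit or a limit of 1, median-ratio scaling, a combined interval, separate intervals at any fold, and an absolute log2 difference over 1. Of these 56 counts 54 were the same. In the Gcn2-/- response 1 member, H19, was called with no FPKM limit and likewise with a limit of 1, against 0, because its levels of 2.26 and 0.191 FPKM then became eligible. Of 126 recomputed log2 differences of single members none reversed a call and 124 moved by less than their error. With a pseudocount of 1 H19 went from -3.02 to -1.45 in the Gcn2-/- response and from -7.32 to -5.32 in Gcn2-/- against WT under ASNase. Settings added after seeing the data kept the counts of differing responses within 1.5 times, and with a pseudocount of 0.01 Meg3 was lost from Atf4-/- minus Gcn2-/-. A combined interval raised the called protein-coding hosts from 8 to 13, the other noncoding hosts from 1 to 2 and the paraspeckle protein genes from 0 to 1 (Pspc1). With a pseudocount of 1, Neat1 and H19 each kept 1 of their 3 nearest profiles. No paired analysis was possible because the table holds 1 value per group and none of single libraries, and for the same reason no replicate could be left out. Wide intervals limit what can be told apart, above all for Malat1 and Neat1.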
